A study of Mus musculus with 16 samples.

Results

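The genes described here encode the proteins of the cytosolic ribosome, measured in kidneys of male mice that lack the peptide transporter PEPT2. They were the genes with a symbol built as Rpl or Rps plus a number, Rplp plus a number, or Rpsa, read from probes annotated to a single gene, without the Rps6k kinases and without annotated pseudogenes. Of 49 such symbols on the array, 47 had a value in both dye orientations for every mouse, out of 6191 genes measured in that way. The 47 comprise 29 genes of the large (60S) subunit and 17 of the small (40S) subunit, and 1 gene that the naming pattern takes in although it encodes no ribosomal protein, Rps19bp1, a nucleolar protein that binds RPS19 and activates the deacetylase SIRT1. Among the 46 others, Rps27l, Rps4l and Rpl36al are paralogs of core proteins, which leaves 43 core genes. Rpl39l and Rpl7l1 were left out because they had values on only 6 and 11 of the 16 arrays, with means of the values present of -0.09 and -0.07.

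Total RNA from the right kidney of 4 Pept2 knockout males (Pept2-/-) was compared with 1 pool of RNA from 5 wild-type (Pept2+/+) right kidneys on spotted cDNA microarrays with 2 colours. All animals were males aged 88 (±2) days, of a mixed C57BL/6 and 129Sv background, from matings within a line that descended from F4 mice. Each knockout mouse was hybridised on 4 arrays, with its RNA in channel 1 on arrays 2 and 4 and in channel 2 on arrays 1 and 3. The values are log2 ratios of knockout over the wild-type pool, and 0 stands for equal signal. Which channel was divided by which is not given in the labels. The direction used is the likely one, on the basis of the targeted gene: Slc15a2, which encodes PEPT2, was then negative on 16 of 16 arrays, with log2 ratios of -2.17, -2.74, -2.81 and -2.33 in the 4 knockout mice. Under the opposite reading every "higher" and "lower" below would be exchanged. The wild-type kidneys were never hybridised singly, so tests against 0 leave out their spread, and all 4 mice were read against the same pool. In bulk kidney RNA, fewer cells of a type and less RNA per cell cannot be told apart.

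The ribosome joins amino acids in the order set by an mRNA: the 40S subunit holds the mRNA and checks the fit of each tRNA, and the 60S subunit forms the peptide bond and passes the chain out through its exit tunnel. Ribosomal proteins are made in matched amounts, and their mRNAs begin with a run of pyrimidines, the 5′ terminal oligopyrimidine (TOP) motif, through which mTOR signalling controls their translation. In the kidney these mRNAs are among the most abundant of every nephron segment, and none of the genes marks a particular cell type.

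Before the comparison with wild type, 2 arrays have to be singled out, because the median log2 ratio of the ribosomal protein genes stood apart on them from all other arrays. On array 2 of mouse 1 the median log2 ratio of the 41 genes with a value was -0.78, and on array 2 of mouse 4 that of all 47 genes was -0.41. On the other 14 arrays the median lay between -0.23 and 0.09. Negative medians were not confined to the 2 arrays, and the median was negative on 11 of all 16. The sign alone does not set these genes apart, since the median of all genes was also negative on most arrays. In mouse 1, 45 of 47 genes were negative on array 1, 43 of 44 on array 3 and 10 of 46 on array 4. The share of all genes below the median of the ribosomal protein genes was 9.25% on array 1 of mouse 1. On arrays 3 and 4 of that mouse it was 29.0% and 66.3%. It was 1.48% and 6.91% on array 2 of mice 1 and 4. The median of all measured genes stayed between -0.04 and 0.02 on all 16 arrays. The set counts, the list medians and the ratios of the ribosomal protein genes described by role are given with and without these arrays. The calls of the random-block fit, the tests between mice, channels and array pairs, and the marker lists and single genes of other lists are given with all arrays only.

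In the knockout kidneys, most ribosomal protein genes had ratios slightly below the wild-type pool, by an amount that was not past the threshold for any single gene. The median log2 ratio of the 47 genes was -0.13, with the middle 50% of genes between -0.19 and -0.06, against a median of -0.00 over all 6191 genes. A negative mean ratio was found for 42 of the 47, where 51.8% of all genes were negative. The ratio was negative in all 4 mice for 26 of the 47, where this held for 14.3% of all genes. In limma's test of the ratio against 0 over 4 mice with Benjamini-Hochberg adjustment over all genes, 0 of the 47 passed the adjusted threshold of 0.05, where 13 of all genes (0.210%) did, with 0.145% lower and 0.0646% higher. At an unadjusted p under 0.05, 27 of the 47 were on the lower side and 0 on the higher side, against a background of 10.0% and 6.80% of all genes. Members of a subunit are made together and share the pool and the arrays, so these counts are not counts of independent events.

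These counts moved with the 2 arrays that stood apart. Without array 2 of mouse 1 the median log2 ratio was -0.09, 40 of 46 genes were negative and 13 were on the lower side at an unadjusted p under 0.05, where 9.60% of all genes were. Without array 2 of mice 1 and 4 the median was -0.05, 34 of 45 genes were negative and 6 were on the lower side at that p, where 9.63% of all genes were. Leaving out arrays 1 and 2 of both mice, so that these mice kept 1 array of each orientation, gave a median of -0.04, 30 of 43 negative genes and 1 gene at that p, where 8.65% of all genes were. The share of all genes with a negative ratio was 52.4%, 53.2% and 53.6% in these 3 settings, in the order given. All 3 alternatives were chosen after the data were seen. In each of them, 0 of the ribosomal protein genes passed the adjusted threshold in limma, where 0.186%, 0.152% and 0.193% of all genes were lower past it. When array 2 of mice 1 and 4 was left out, the ratio was nearer to 0 for 40 of the 45 genes still measured, and for 37 it moved by more than 1.5 times or changed sign, which 6 did. For 4 of the 45 fewer probes were left, among them Rps6 and Rplp2. With a whole mouse left out, the number on the lower side at that unadjusted p was 13 without mouse 1 and 12 without mouse 4, and 29 and 26 without mice 2 and 3. The share of all genes on the lower side was 9.62%, 5.42%, 10.7% and 6.09% in that order.

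**Figure D1:**
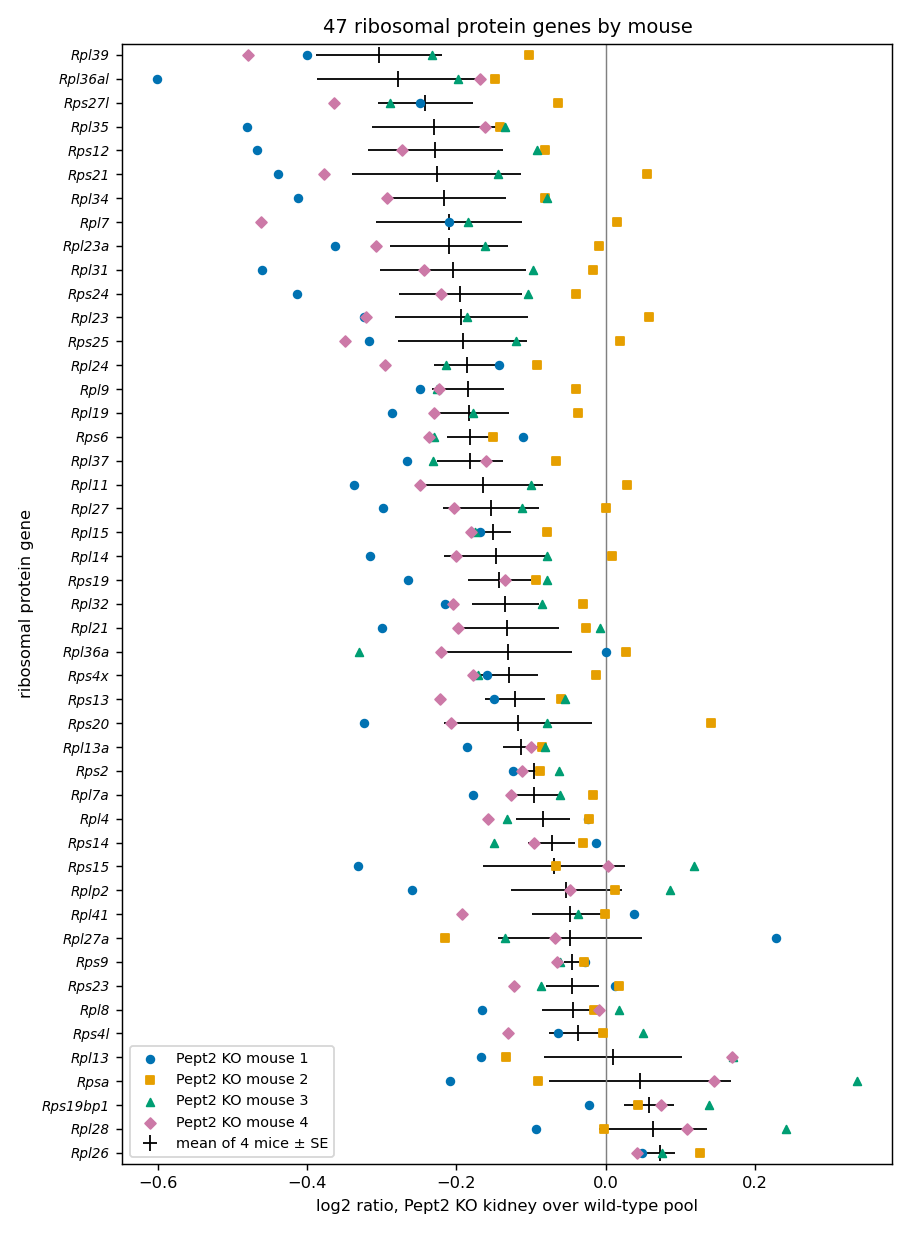
Log2 ratio of knockout kidney over the wild-type pool (x axis) for the 47 ribosomal protein genes (y axis, ordered by mean). Coloured points are the 4 mice and black bars the mean ± SE over them. Mouse 2 has the median nearest to 0, at -0.03, and the means run from -0.30 for Rpl39 to 0.07 for Rpl26.

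The lowest mean was that of Rpl39, which encodes a very small protein that lines the exit tunnel. Its log2 ratios were -0.40, -0.10, -0.23 and -0.48 in the 4 knockout mice, with a mean of -0.30 (SD 0.17, n = 4 mice), a ratio 1.23-fold below the pool, at an adjusted p of 0.145 in limma. It was negative on 15 of 16 arrays, and all 4 mice lay below 0. Without array 2 of mice 1 and 4 its mean was -0.20. The 6 exit tunnel and rim genes measured did not share a level. Rpl35 stood at -0.23, Rpl23a at -0.21 and Rpl31 at -0.20, while Rpl4, whose loop narrows the tunnel, stood at -0.08. With array 2 of mice 1 and 4 left out these were -0.12 for Rpl35, -0.10 for Rpl23a, -0.06 for Rpl31 and -0.09 for Rpl4, so that Rpl31 and Rpl4 changed order. Rpl26, which lies near the tunnel exit, stood at 0.07, with 0.05, 0.13, 0.08 and 0.04 in the 4 mice, and was the only one of the 47 genes with a positive ratio in every mouse. That was 1 of 47, where 11.4% of all genes were positive in all 4 mice, and its adjusted p was 0.412 in limma. Without those arrays its mean was 0.04.

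Outside the tunnel, the ratios of the 60S subunit ran from -0.28 to 0.06. Besides Rpl39, 8 genes of this subunit were among the 12 genes with the smallest p: Rpl24 (-0.19), Rpl37 (-0.18), Rpl36al (-0.28), Rpl9 (-0.18), Rpl35 (-0.23), Rpl19 (-0.18), Rpl15 (-0.15) and Rpl34 (-0.22). Their adjusted p in limma lay between 0.167 and 0.179, and none was positive in any of the 4 mice. In the absence of array 2 of mice 1 and 4 the means were -0.11 for Rpl24, -0.09 for Rpl37, -0.12 for Rpl9, -0.09 for Rpl19, -0.11 for Rpl15 and -0.10 for Rpl34, and Rpl36al could not be measured. Rpl11, which forms with the 5S rRNA a particle that can bind the p53 regulator MDM2, stood at -0.34, 0.03, -0.10 and -0.25 in the 4 mice, so that it was below 0 in 3 of them. Its mean was -0.16 with all arrays and -0.05 without array 2 of mice 1 and 4. Rplp2, a protein of the flexible stalk that recruits translation factors, stood at -0.26, 0.01, 0.09 and -0.05, with a mean of -0.05 (SD 0.15). Its 2 probes gave -0.07 and -0.04. Without those arrays 1 probe was left and the mean was 0.03. Rpl28 had a mean of 0.06 and Rpl13 of 0.01, and each had both signs among the mice. So did Rps19bp1, the gene that encodes no ribosomal protein, at -0.02, 0.04, 0.14 and 0.07, with a mean of 0.06. The means of Rpl7, Rpl7a, Rpl8, Rpl13a, Rpl14, Rpl21, Rpl23, Rpl27, Rpl27a, Rpl32 and Rpl41 lay between -0.21 for Rpl7 and -0.04 for Rpl8. With array 2 of mice 1 and 4 left out, Rpl7 could not be measured. The others then lay between -0.07 for Rpl23 and 0.03 for Rpl41, and Rpl14 and Rpl8 were also above 0. Without those arrays Rpl28 stood at 0.05, Rpl13 at 0.02 and Rps19bp1 at 0.08.

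In the 40S subunit, Rps27l had the lowest mean. It is the paralog of Rps27 and, in human cells, a target gene of p53. Its log2 ratios were -0.25, -0.06, -0.29 and -0.36 in the 4 knockout mice, with a mean of -0.24 (SD 0.13, n = 4 mice) and an adjusted p of 0.148 in limma. Rps6, the protein phosphorylated by the S6 kinases that act below mTOR, stood at -0.11, -0.15, -0.23 and -0.24, with a mean of -0.18 (SD 0.06) and an adjusted p of 0.157 in limma. Both genes lay below 0 in every mouse. Leaving out array 2 of mice 1 and 4, the mean of Rps27l was -0.17 and that of Rps6 was -0.03, at an adjusted p of 0.791 in limma and with 1 of its 2 probes left. The 2 probes of Rps6 gave means of -0.08 and -0.29, the second from 11 arrays, so the size of its ratio depends on the probe. In all 8 genes with more than 1 probe, Rps6 and Rplp2 among them, each probe had a negative mean. Rps12 was the other 40S gene among the 12 with the smallest p, at -0.23 (adjusted p 0.179 in limma). Its mean was -0.13 without array 2 of mouse 1 and -0.08 without array 2 of mice 1 and 4. Rps13, Rps15, Rps21 and Rps25 had means between -0.23 for Rps21 and -0.07 for Rps15. Without array 2 of mice 1 and 4 these lay between -0.10 for Rps21 and -0.00 for Rps15.

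Genes of named roles in the small subunit had the following values. Rps2, at the mRNA entry, had a mean of -0.10 (SD 0.03), Rps14, on the platform, of -0.07 (SD 0.06), and Rps23, whose loop reaches the decoding centre, of -0.04 (SD 0.07). Among genes needed early in 40S assembly, Rps24 stood at -0.19, Rps6 at -0.18 and Rps9 at -0.05. Among those needed late, Rps19, the gene most often mutated in human Diamond-Blackfan anaemia, stood at -0.14 and Rps20 at -0.12. If array 2 of mice 1 and 4 was left out, Rps2 stood at -0.08, Rps14 at -0.07, Rps23 at -0.02, Rps24 at -0.08, Rps9 at 0.00, Rps19 at -0.01 and Rps20 at 0.01. The order of these genes thus differed with and without those arrays: Rps19 lay below Rps2 with them and above it without them. None of these passed the adjusted threshold in limma, and differences between them were not tested.

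Paralogs were compared with their core partners where both were measured. Rps4l and the X-linked Rps4x had means of -0.04 and -0.13, and of -0.02 and -0.06 without array 2 of mice 1 and 4. Rpl36al had -0.60, -0.15, -0.20 and -0.17 in the 4 knockout mice, and the X-linked Rpl36a -0.00, 0.03, -0.33 and -0.22, with a mean of -0.13 for Rpl36a and -0.12 without those arrays. Mouse 1 was the lowest of the 4 for Rpl36al and near 0 for Rpl36a, but each of the pair had values on 12 arrays, and Rpl36a was blank on array 2 of mouse 1, where Rpl36al stood at -0.96. Without that array Rpl36al had no value for mouse 1 with knockout RNA in channel 1. Across the subunits the medians were -0.15 for the 29 genes of the 60S subunit and -0.12 for the 17 of the 40S subunit, and -0.06 over 27 genes and -0.03 over 17 without array 2 of mice 1 and 4. Cross-hybridisation between ribosomal protein genes and their many processed pseudogenes cannot be told apart from the genes' own signal on cDNA probes. A further 32 probes name a ribosomal protein gene together with other genes, 20 of them with a pseudogene or predicted gene. They lie outside the rule, and 26 of the 30 measured were negative, with a median of -0.12.

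Arrays of the same mouse gave unlike values. The RNA of mouse 1, in the same channel, gave a median log2 ratio over the ribosomal protein genes of -0.78 on array 2 and 0.09 on array 4. Of the 40 genes measured on both, 38 were lower on array 2, with a median difference, array 2 minus array 4, of -0.87. In mouse 4 the same pair of arrays gave -0.41 and 0.06, with 38 of 46 genes lower on array 2 and a median difference of -0.46. The median difference of all genes on these pairs was -0.03 and 0.03. In mice 2 and 3 the pair differed by 0.05 and -0.00. In mice 1 and 4 the arrays of the same mouse thus lay further apart than the medians of the 4 mice, which were -0.22, -0.03, -0.10 and -0.19.

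The extent varied by gene on array 2 of mouse 1. Rps21 was lowest, at -1.63, against 0.10 on array 4, followed by Rpl31 (-1.44 against 0.02), Rps12 (-1.44 against 0.14) and Rpl37 (-1.43 against 0.04). Rpl26 stood at 0.16 there, Rps14 at 0.11 and Rps9 at 0.01, and these 3 were the only ones of the 41 above 0. Of the 100 lowest genes on that array, 21 were ribosomal protein genes, and 14 were on array 2 of mouse 4, where the 47 make up 0.759% of all genes. On the other 14 arrays this number was between 0 and 7, with a median of 0. The 32 probes outside the rule, those that name several genes, had medians of -0.45 on array 2 of mouse 1 and 0.09 on array 4 (27 and 29 with a value), in the same order as the ribosomal protein genes.

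**Figure D2:**
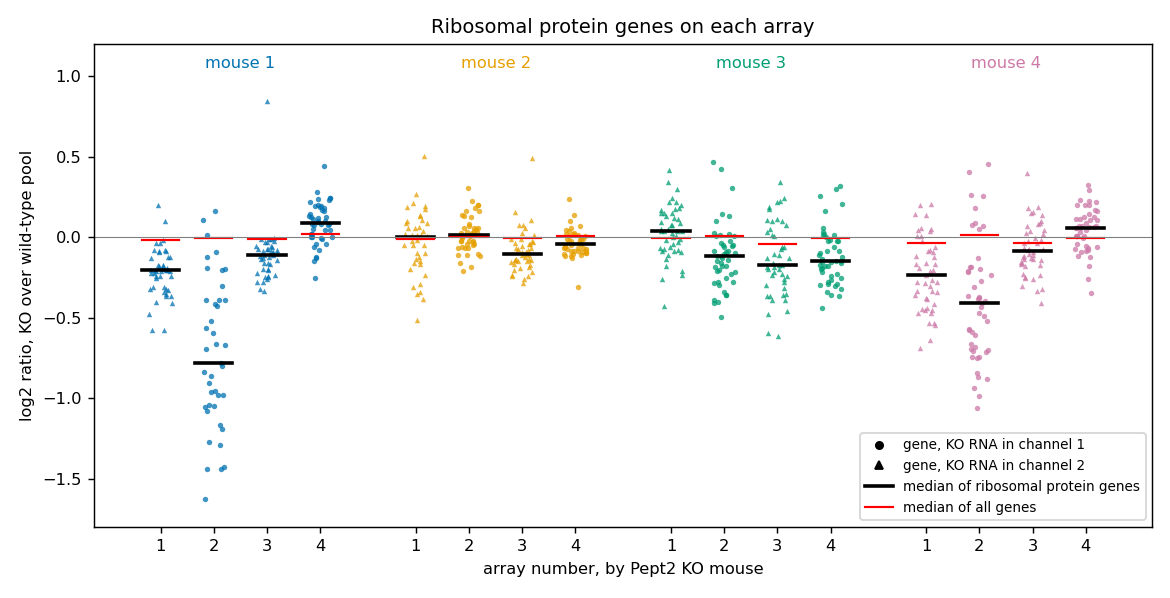
Log2 ratio of knockout over the wild-type pool (y axis) of each ribosomal protein gene on the 16 arrays (x axis, by mouse). Circles are arrays with knockout RNA in channel 1 and triangles in channel 2, black bars are the medians of the ribosomal protein genes and red bars the medians of all genes. The medians of -0.78 and -0.41 on array 2 of mice 1 and 4 stand below those of all other arrays.

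Taken over arrays 1 and 2 minus arrays 3 and 4 of each mouse, the median difference of the 32 genes with a value on every array was -0.41, 0.06, 0.10 and -0.34 in the 4 mice. Mice 1 and 4 were thus lower on their first 2 arrays, and mice 2 and 3 were not. In limma's test of this difference over 4 mice, 0 of 32 genes passed the adjusted threshold, where 0 of 2681 (0.00%) of all genes did. The mean difference was negative for 29 of the 32, where it was for 47.0% of all genes. With an unadjusted p under 0.05, 5 of the 32 differed, all of them negative, where 3.84% of all genes differed in either direction and 1.90% were negative. The smallest adjusted p was 0.928. Array numbers come from the titles, and no label calls them a batch. For the channel of the knockout RNA, 0 of 47 genes had a difference past the adjusted threshold in limma, where 0 of 6191 (0.00%) of all genes did. At an unadjusted p under 0.05 there were 10, against 19.5% of all genes.

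Other measures of the arrays were set beside these values. The share of probes with a value ran from 50.2% to 91.1% over arrays, and its correlation with the median of the ribosomal protein genes over 16 arrays was 0.02. The Slc15a2 log2 ratio on array 2 of mouse 1 was -1.97 and on array 2 of mouse 4 was -1.45, within its range of -3.77 to -1.45 over arrays and at the end of it for mouse 4. Over all genes, array 2 of mouse 1 correlated with array 4 of the same mouse at 0.10, the lowest of the 8 pairs of the same mouse and orientation, for which the others lay between 0.24 and 0.58. These correlations run across genes, which are not independent replicates. The part of RNA quality, of the hybridisation or of the scan in the array differences was not tested.

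The genes differed in how closely they followed the others from array to array. Each gene's log2 ratios over the 16 arrays were correlated with the median of the other 46, as a description of arrays that share 4 mice and 1 pool. The likeness was above 0.8 for 24 genes, between 0.5 and 0.8 for 11 and at most 0.5 for 12. Rpl27 (0.97), Rps12 (0.96), Rpl23a (0.96) and Rpl34 (0.95) followed the median most closely. Rpl26 (-0.44), Rpl28 (-0.35), Rps14 (-0.04), Rpl27a (0.04), Rpl13 (0.12) and Rps2 (0.18) followed it least. Rpl27, Rpl23a and Rpl27a are named here for this measure, after their values were seen.

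The group with the closest likeness was also the one with the lower ratios. The 24 genes above 0.8 had mean ratios between -0.30 and -0.10, with a median of -0.19, and medians of -1.04 on array 2 of mouse 1 and -0.63 on array 2 of mouse 4. The 12 genes at 0.5 or below had mean ratios between -0.13 and 0.07, with a median of -0.04, and medians of -0.16 and 0.08 on these arrays. On array 4 of mouse 1 the medians of both groups were above 0, at 0.07 and 0.10. On array 2 of mouse 1, 23 of the 24 and 10 of the 12 genes had a value. The 2 groups were formed from these same arrays. A low value on array 2 of mouse 1 or 4 both raises a gene's likeness and lowers its mean ratio. The contrast is therefore a description that follows in part from how the groups were formed. Likeness was not computed without those arrays.

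**Figure D3:**
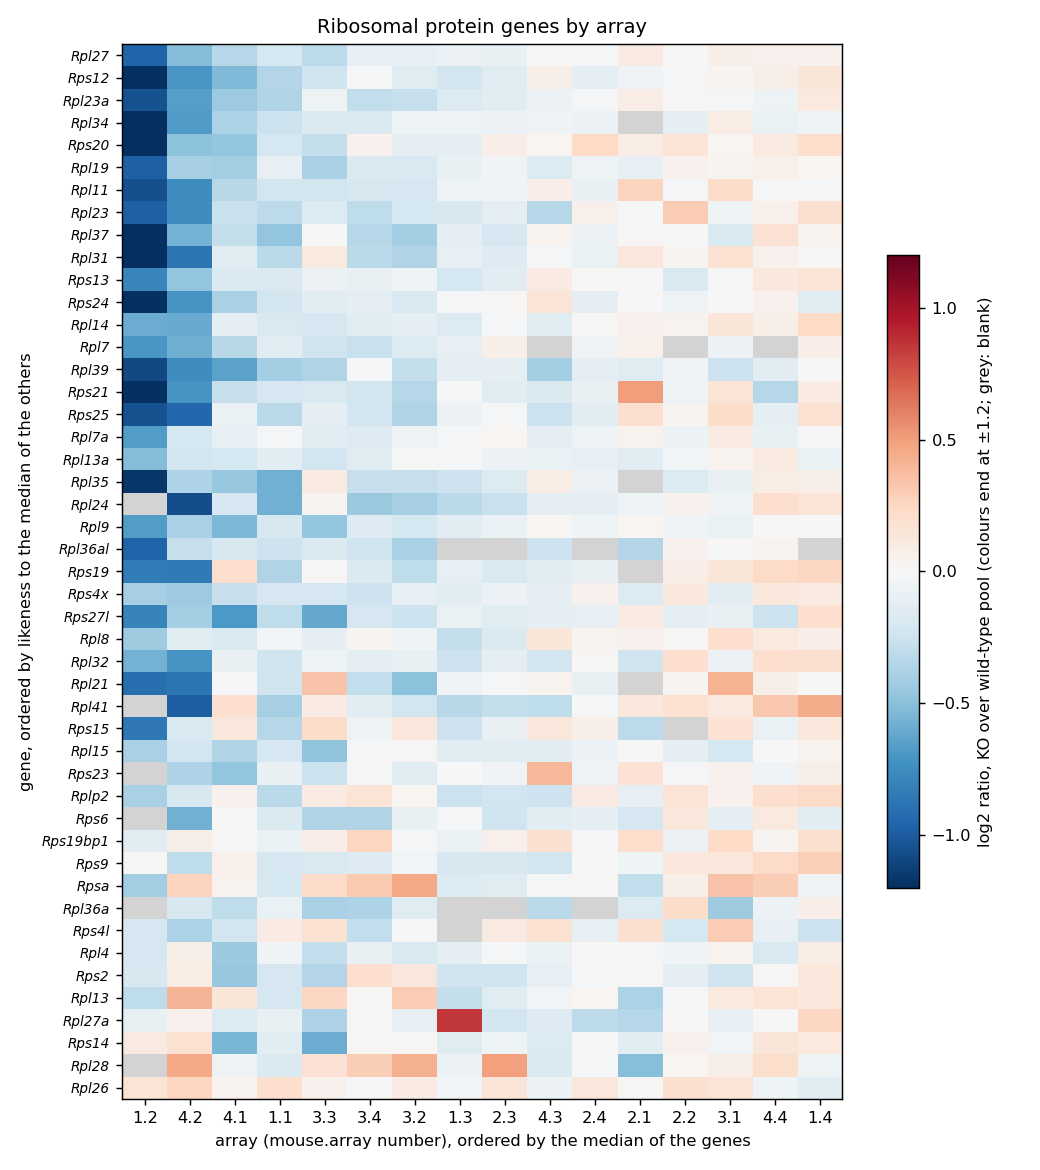
Log2 ratio of knockout over the wild-type pool (colour, from -1.2 in dark blue to 1.2 in dark red, grey where blank) for the ribosomal protein genes (rows, ordered by likeness to the median of the others) on the 16 arrays (columns, labelled mouse.array and ordered by the median of the genes). Array 2 of mouse 1 and array 2 of mouse 4 are the leftmost columns, and the lowest rows, Rpl28 and Rpl26, do not turn blue there, with Rpl28 blank on the first.

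The start regions of genes at both ends of this order are shown because ribosomal protein genes are known for starts of transcription within a run of pyrimidines. The windows hold 60 bases before the annotated start and 15 bases from it on, 5′ to 3′ on the gene's strand, from RefSeq on build GRCm38.p6. Capitals mark the longest run of C or T in the window. Rpl39 is given for its lowest mean ratio, Rpl27, Rps12 and Rpl34 for the closest likeness to the others, Rpl26, Rpl28 and Rpl27a for the least among genes with a window, and Rpsa for its difference between mice.
Rpl39, chrX:37085208-37085282, minus strand: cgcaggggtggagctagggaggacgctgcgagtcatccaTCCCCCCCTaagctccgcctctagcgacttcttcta
Rpl27, chr11:101442185-101442259, plus strand: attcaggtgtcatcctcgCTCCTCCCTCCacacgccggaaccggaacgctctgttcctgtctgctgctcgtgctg
Rps12, chr10:23787195-23787269, minus strand: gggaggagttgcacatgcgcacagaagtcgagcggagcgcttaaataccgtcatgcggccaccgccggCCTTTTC
Rpl34, chr3:130730323-130730397, minus strand: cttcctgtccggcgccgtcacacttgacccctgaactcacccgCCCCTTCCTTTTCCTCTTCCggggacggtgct
Rpl26, chr11:68901506-68901580, plus strand: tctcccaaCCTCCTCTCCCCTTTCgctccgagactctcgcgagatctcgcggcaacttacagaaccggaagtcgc
Rpl28, chr7:4792905-4792979, plus strand: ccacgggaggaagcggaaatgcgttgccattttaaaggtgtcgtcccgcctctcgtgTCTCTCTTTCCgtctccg
Rpl27a, chr7:109519135-109519209, plus strand: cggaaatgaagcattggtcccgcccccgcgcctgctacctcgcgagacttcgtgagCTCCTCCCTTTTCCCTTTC
Rpsa, chr9:120127706-120127780, plus strand: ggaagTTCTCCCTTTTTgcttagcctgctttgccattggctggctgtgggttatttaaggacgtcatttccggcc

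The run had 9 bases in Rpl39, 11 in Rpl27, 20 in Rpl34, 16 in Rpl26, 11 in Rpl28, 19 in Rpl27a and 12 in Rpsa. In Rps12 it had 7 and reached the end of the window, as it did in Rpl27a. It crossed the annotated start in Rpl34, Rpl28 and Rpl27a and lay upstream of it in Rpl39, Rpl27, Rpl26 and Rpsa. In Rps12 it lay downstream of the annotated start. A run of at least 8 was found in 25 of the 39 members whose promoter was in the table (64.1%), against 33.2% of 27025 genes. The letters CCGGAAG, the core bound by ETS factors such as GABPA, were found on either strand within 250 bases before to 50 after the start in 18 of the 39 (46.2%), against 9.93% of genes. AAGATGG, a YY1 core, was found in 5.13% of members against 7.28% of genes, and TATAAA in 7.69% against 15.7%. Rpl26, Rpl27a and Rpsa held CCGGAAG, as did Rpl39 and Rpl34, while Rpl28, Rpl27 and Rps12 did not. The match thus did not follow the likeness among the genes shown. A match is a description of letters, and no binding was measured.

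Between the knockout mice, 1 of 47 ribosomal protein genes differed past the adjusted threshold in limma's F test over arrays, where 157 of 6191 genes (2.54%) did. At an unadjusted p under 0.05 there were 3, Rpsa, Rpl13 and Rpl36a, against 13.6% of all genes. Rpsa, a 40S protein that is also known as the laminin receptor and whose mutation causes absence of the spleen in humans, had log2 ratios of -0.21, -0.09, 0.34 and 0.15 in the 4 mice, at an adjusted p of 0.0130. Its array values were -0.21, -0.41, -0.17 and -0.04 in mouse 1, and -0.29, 0.07, -0.15 and 0.01 in mouse 2. They were 0.34, 0.47, 0.23 and 0.31 in mouse 3, and 0.04, 0.26, -0.02 and 0.30 in mouse 4. The arrays of mouse 3 all lay above those of mice 1 and 2. The wild-type pool is common to all 4 and cancels in this comparison, but arrays of a mouse share its RNA, so the test compares these animals only.

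Rpl13 had mouse values of -0.17, -0.13, 0.17 and 0.17, with an adjusted p of 0.157 between mice. The call on Rpsa was lost without mouse 1, at a smallest adjusted p of 0.0859 among the members, and without mouse 3, at 0.287. Kidneys of mice 3 and 4 also differed from the others in Svs5, a seminal vesicle gene and the only one of that marker list measured, at log2 ratios of 0.21, -0.09, 4.94 and 1.09 in the 4 mice. Whether seminal vesicle RNA has a part in the Rpsa values was not tested. Rps21, Rpl36al, Rps20, Rpl7 and Rpl31 had the next largest SDs after Rpsa, from 0.20 to 0.23, and none of them differed between mice past the threshold.

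Other genes of protein synthesis were counted from lists. Of 37 ribosome biogenesis genes, which build the subunits in the nucleolus, 23 were negative, with a median of -0.02. The smallest p values were those of Nhp2, a protein of pseudouridylation particles, at -0.26 (adjusted p 0.117 in limma), Nop58 of the methylation particles at -0.21, Riok3 at -0.14 and Ddx52 at -0.12. Of 17 other transcripts with a TOP motif, 14 were negative, with a median of -0.08. Among them Gas5, a noncoding host of small nucleolar RNAs, stood at -0.26, Ybx1 at -0.18, Cct2 at -0.13 and Eif3f, a subunit of initiation factor 3, at 0.19. Of 16 genes of growth signalling upstream of the ribosome, 12 were negative, with a median of -0.04, and Mtor itself stood at -0.11 and its inhibitor Ddit4 at -0.15. In these 3 lists, 0 genes passed the adjusted threshold in limma, where 0.210% of all genes did. At an unadjusted p under 0.05 there were 6, 5 and 2 on the lower side, where 10.0% of all genes were, and 0, 1 and 0 on the higher side, where 6.80% were. A negative ratio was found for 51.8% of all genes. With array 2 of mice 1 and 4 left out, the medians of these 3 lists were -0.00, -0.06 and -0.06.

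Mitochondrial genes were counted in the same way. Of 57 mitochondrial ribosomal protein genes, 41 were negative with a median of -0.05, and Mrpl42 had the smallest p at -0.24. Of 68 genes of the respiratory chain and ATP synthase, 58 were negative with a median of -0.09, and Ndufaf8, an assembly factor, at -0.46 and Cox7b at -0.30 had the smallest p. In both lists 0 genes passed the adjusted threshold in limma, where 0.210% of all genes did. At an unadjusted p under 0.05, 9 of 57 and 22 of 68 were on the lower side, where 10.0% of all genes were, and 1 and 3 on the higher side, where 6.80% were. The medians with array 2 of mice 1 and 4 left out were -0.02 and -0.05. On array 2 of mouse 1, where the ribosomal protein genes had a median of -0.78, that of the mitochondrial ribosome was -0.17 and that of the respiratory chain -0.43. On array 2 of mouse 4 these medians were -0.06 and -0.36 beside -0.41. The mitochondrial ribosome had a median of -0.06 over the 16 array values too, and the respiratory chain one of -0.09.

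Over the 16 arrays, the medians of the large and small subunit moved together, with a correlation of 0.99, and 0.95 without array 2 of mice 1 and 4. The median of the ribosomal protein genes correlated at 0.89 with that of the respiratory chain (0.84 without these arrays), at 0.84 with the mitochondrial ribosome (0.79), at 0.67 with the other TOP transcripts (0.70) and at 0.52 with biogenesis genes (0.33). These are descriptions over arrays that share 4 mice and 1 wild-type pool. Whether short or abundant mRNAs as a class move with them was not tested.

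**Figure D4:**
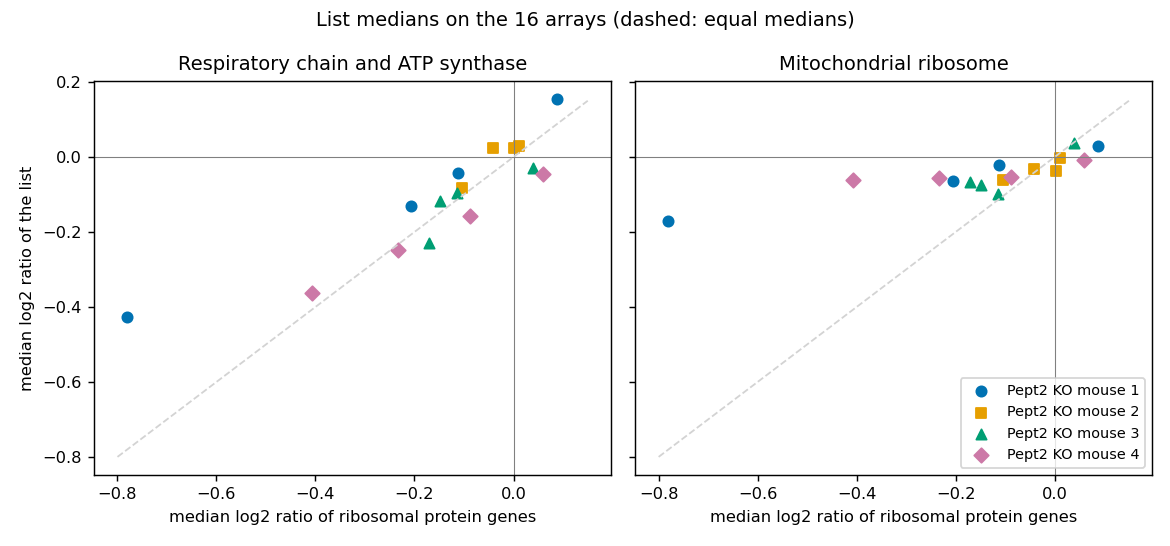
Median log2 ratio, knockout over the wild-type pool, of the respiratory chain and ATP synthase (left panel, y axis) and of the mitochondrial ribosome (right panel, y axis) against the median of the ribosomal protein genes (x axis) on each of the 16 arrays, coloured by mouse. The dashed line marks equal medians. The array of mouse 1 at -0.78 on the x axis stands at -0.43 on the left and -0.17 on the right.

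Markers of kidney cell types were set beside the ribosomal protein genes. Over all genes, 51.8% were negative and 0.0646% were higher past the adjusted threshold in limma. Of 8 proximal tubule markers 3 were negative, with a median of 0.03, and Slc22a8, an organic anion transporter, was higher in knockout kidney at 0.48, past that threshold. Of 4 collecting duct markers 0 were negative, with a median of 0.12. Of 8 markers of smooth muscle and fibroblasts 7 were negative, with a median of -0.09 and mouse medians of -0.18, 0.06, -0.21 and -0.17. Of 4 endothelial markers 4 were negative, with a median of -0.14, and of 7 leukocyte markers 2 were, with a median of 0.07. Of 2 markers of loop of Henle and distal tubule 2 were negative (median -0.10), as were 2 of 2 adipose markers (-0.14) and the 1 podocyte marker (-0.19). The 1 erythroid marker (0.07) and the 1 adrenal marker (0.03) were positive. Mouse 2, the nearest to 0 for the ribosomal protein genes, was the only one above 0 for smooth muscle and fibroblasts. The same held for the medians of the adipose markers (-0.16, 0.06, -0.15 and -0.32) and the respiratory chain (-0.10, 0.01, -0.12 and -0.19). The 2 adipose markers differed in sign in mouse 2, with Fabp4 at 0.34 and Lpl at -0.22. It did not hold for endothelial, podocyte or loop of Henle and distal tubule markers, whose medians in mouse 2 were -0.11, -0.05 and -0.21. The part of cell makeup in the ribosomal protein ratios was not tested.

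The choice of replication unit changed the calls. With the 16 arrays as observations and the mouse as a random block in limma, 5 of the 47 genes were lower in knockout kidney past the adjusted threshold, where 301 of 6191 genes (4.86%) were. They were Rpl39 (adjusted p 0.0105), Rps27l (0.0236), Rpl15 (0.0346), Rpl9 (0.0360) and Rpl36al (0.0400). The within-mouse correlation estimated over all genes was 0.0140, so this fit treats the 4 arrays of a mouse almost as separate animals.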

How the data were processed

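Per the labels' protocols, total RNA was reverse transcribed, labelled indirectly with Cy3 or Cy5 and hybridised, and slides were scanned on a GenePix 4000A. Per the labels, the authors scaled background-subtracted mean intensities to a median ratio of 1 per array. The deposited values are read as log2 ratios, since 46.5% of 720 distances between repeated values matched log2 of a fraction of small whole numbers (tolerance 2e-06) and 0 matched other bases. The filter behind blank cells and the dye of each channel are not given in the sources used here. Arrays were signed to knockout over wild type, centred on their median and averaged by orientation, then by mouse (n = 4). A probe needed a value in both orientations of every mouse, and a gene is the mean of its probes. The ratio was tested against 0, two-sided, with limma 3.58.1 in R 4.3.3 (lmFit, eBayes, Benjamini-Hochberg, threshold 0.05), and differences between mice with its moderated F test and a channel term. Arrays and mice limit the precision: the median SE of a gene was 0.05. Whether mice came from separate litters is not stated.

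The members, lists and alternatives were chosen with earlier results of these data known. Genes were named by a rule: Slc15a2, members past a threshold, the 12 of smallest p, those with a positive ratio, the 6 with the largest SD between mice, paralogs, genes of named ribosomal roles, and at most 4 genes of smallest p per list. Genes singled out for their array values were named after these were seen. On simulated data for the comparison with wild type (6191 genes), 15 of 100 genes changed by 0.2, 96 of 100 changed by 0.5 and 100 of 100 changed by 1 on the log2 scale were called, with 11 calls among 5891 unchanged genes. Of 20205 probes, 11723 had 1 gene symbol in the platform annotation, 806 several and 7676 none. Promoters of 39 of 47 genes were matched by symbol to RefSeq (GRCm38.p6). Alternatives left out each mouse, either array pair or either channel, and changed the centring, scale, blank-cell filter, probe summary and replication unit.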

Additional observations from a re-analysis of the deposited data

Results flagged for a closer look

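In 5 of the 47 ribosomal protein genes, the value of 1 mouse lay far from the other three by Dixon's criterion, among 49 sets of 4 mice examined. Chance flags about 1 in 20 such sets. The rule was not applied to all genes. Mouse 1 was far below the others for Rpl35, at a log2 ratio of -0.48 against -0.16 in the nearest mouse, and for Rpl36al, at -0.60 against -0.20. These mouse 1 values include array 2, 1 of the 2 arrays that stood apart. Rpl35 was at -1.17 on it and at 0.07 on array 4. Rpl36al was at -0.96 on it and blank on array 4. Whether these flags hold without that array was not tested. Mouse 2 was nearest to 0 for Rpl9, at -0.0398 against -0.22 in the nearest mouse, for Rpl15, at -0.0792 against -0.17, and for Rps4x, at -0.0124 against -0.16.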

How the results depend on the processing

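No ribosomal protein gene passed the adjusted threshold against the wild-type pool under any alternative except the arrays with the mouse as a random block, where 5 did. The median log2 ratio of the ribosomal protein genes was negative under every alternative run, from -0.21 with arrays 1 and 2 only to -0.0357 without arrays 1 and 2 of mice 1 and 4. It was -0.06 with arrays 3 and 4 only, -0.18 with knockout RNA in channel 1 only and -0.11 in channel 2 only. The median of all genes in these 5 settings, in the order given, was -0.0085, -0.0075, -0.0174, -0.0023 and -0.0134. With arrays 3 and 4 only, 32 of 43 genes were negative, where 57.3% of all genes were. There 1 was on the lower side at an unadjusted p under 0.05 in limma, where 9.82% of all genes were. With arrays 1 and 2 only, 30 of 34 were negative (53.2% of all genes) and 18 were on the lower side at that p (8.97% of all genes). Leaving out each mouse gave medians from -0.17 to -0.11. The number of ribosomal protein genes differing between mice past the adjusted threshold ranged from 0 to 1 when each mouse was left out. Over all 6191 genes it was 45, 75, 58 and 135 without mice 1, 2, 3 and 4. Of 901 values of single genes under the alternatives, 848 moved by less than the spread between mice, 48 moved by more and 5 crossed the threshold, the last all under the random block. That spread is the gene's SD between mice with array 2 of mice 1 and 4 included, so it cannot show stability against leaving them out. Without them, 37 of 45 genes moved by more than 1.5 times or changed sign. Some alternatives, such as the median of probes, left most values as they were. No paired analysis was possible because the wild-type RNA was 1 pool. Without intensities, it was not tested whether spots were dim or saturated. At this number of mice, 15 of 100 genes changed by 0.2 were called on simulated data. Changes as small as the median seen here were not simulated, nor were shifts shared by many genes on single arrays.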
